A study of Mus musculus with 10 samples.

Results

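The genes described here are 8 epidermal and stress keratins of the mouse, Krt1, Krt5, Krt6a, Krt10, Krt14, Krt15, Krt16 and Krt17. They were chosen by symbol in the platform's gene table, and 13 of the 45037 tested probe sets of the array belong to 1 of them alone. A further probe set listed for both Krt17 and Krt14 was left out. Messenger RNA was measured on 10 Affymetrix arrays of secondary inducible embryonic fibroblasts from a 129/SvJ x C57/B6 hybrid, cells that can switch on Oct4, Sox2, Klf4 and Myc (OSKM) when doxycycline is added. The 5 groups held 2 arrays each. Cells induced for 96 h in 15% serum with doxycycline, labelled as 2 ug/ul, made up 4 cohorts by their mean number of divisions, 0, 1, 2 and at least 3 (the 3+ cohort). The control was uninduced and starved for 96 h in 0.5% serum. All groups carry the inducible factors. Doxycycline and serum changed together, so induction and serum cannot be told apart against the control.

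Keratins are the intermediate filament proteins of epithelial cells. A filament forms from a type I and a type II keratin together, in pairs that mark the kind of epithelium. Krt14 with Krt5 builds the filaments of the basal layer of the epidermis, where Krt15 is also made, and Krt10 with Krt1 replaces them as cells leave that layer. Krt16 and Krt17 with Krt6a are the stress keratins, which epidermis makes after wounding and in hyperproliferation. Fibroblasts build their filaments from vimentin instead. On the arrays of the 3+ cohort its gene Vim read 20485 and 19365, against 20268 and 18876 in the control (linear intensity), and did not pass the test below (log2 change 0.07 ± 0.10). The highest readings of the control and 3+ arrays were 24636 to 26572, so Vim lies near the top of the scale, and whether it was saturated was not tested.

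The deposited intensities are linear, with array medians of 31.4 to 33.95, and no detection calls were used, so which probe sets lay above background is not known. Levels are compared only within a probe set. The brightest probe set of a gene is the one with the highest mean log2 value over the 10 arrays. Changes are on the log2 scale, with the standard error (SE) of limma's fit over all 10 arrays, and a probe set was called at a Benjamini-Hochberg adjusted p under 0.05 over all 45037 probe sets. The labels call the arrays of the control and the 3+ cohort biological replicates and the others only replicates, and none names separate cultures, so p-values measure the spread between these arrays, which may be technical. The control and the 3+ cohort share a style of label and a note of RMA processing that the other 6 arrays lack, and no group spans both styles. Comparisons of 0, 1 or 2 divisions with the control, and of 3 or more with 2, therefore cross these styles, and style and group cannot be told apart there. In these bulk samples, a change in the number of keratin-making cells and a change in keratin RNA per cell cannot be told apart.

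In induced cells of 3 or more divisions the stress keratins Krt16 and Krt6a and the basal keratin Krt14 stood 15.5-fold to 102-fold above the starved control by their brightest probe sets, Krt17 rose by less (6.71-fold), and Krt5 and Krt10 did not pass the test. Of the 13 probe sets 9 rose and 0 fell, and the 9 belong to 6 of the 8 genes. Over all probe sets 11.3% were called higher and 9.38% lower in this comparison. The median log2 change of the 13 was 2.75, beside 0.0047 over all probe sets. Krt6a, Krt14 and Krt17 each enter this median with several probe sets. Leaving out any single array gave 8 or 9 called probe sets. The probe sets lost in those fits were of Krt1 and Krt15. With intensities below 32 set to 32, the change of Krt16 was 40.8-fold, that of Krt14 45.8-fold and that of Krt6a 15.5-fold, each still called.

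**Figure D1:**
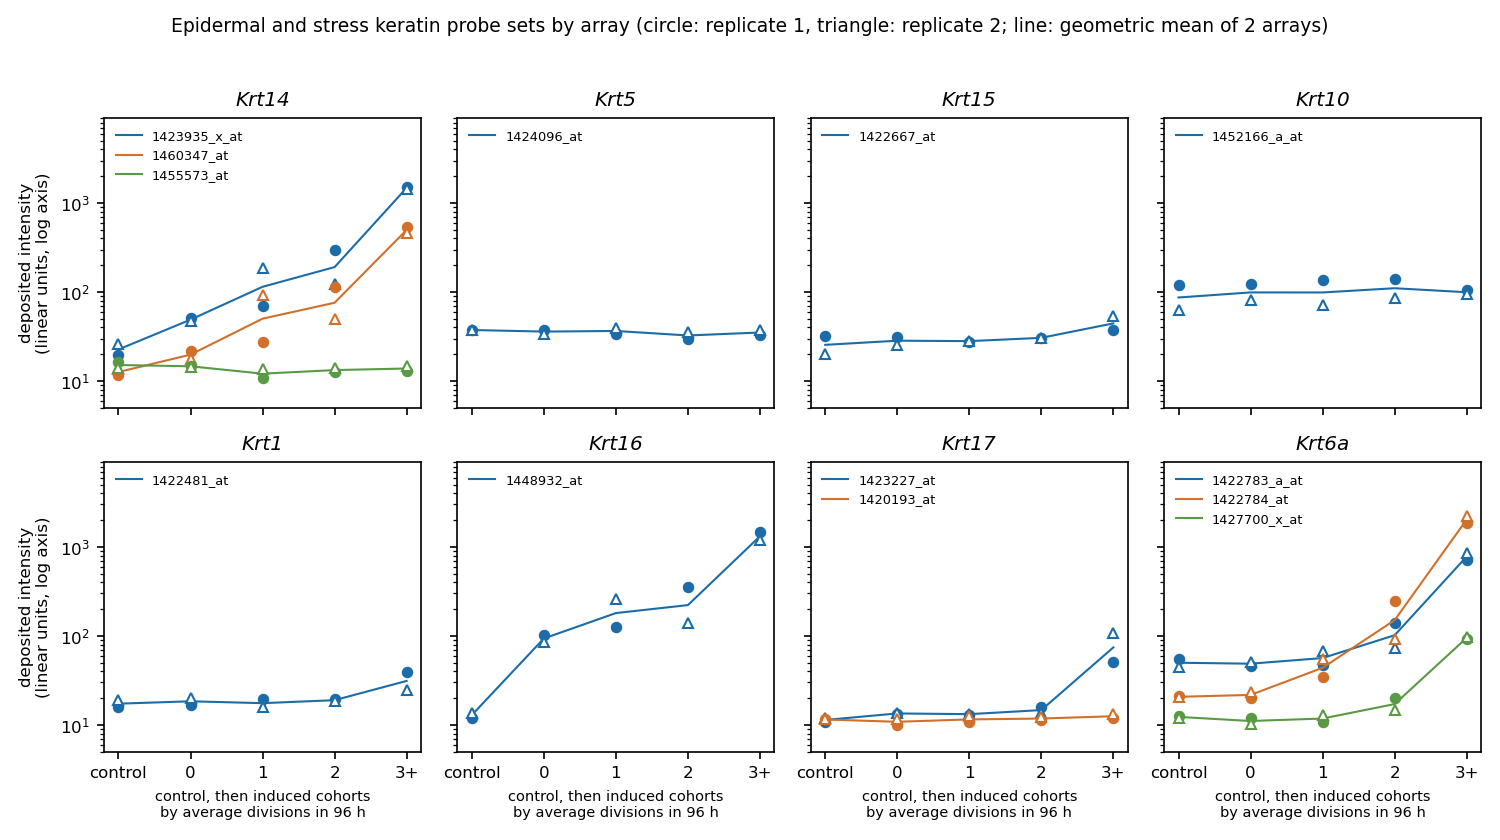
Deposited intensity (linear units on a log axis) of the 13 keratin probe sets on each of the 10 arrays, with the control at the left and the induced cohorts by average divisions in 96 h; circles are replicate 1, triangles replicate 2, and lines join geometric means of 2 arrays. Krt16 stood at 103 and 85.3 with 0 divisions, against 12.1 and 13.7 in the control, while Krt5 lay between 29.7 and 39.9 on every array.

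Krt14, the type I keratin of basal cells, has 3 probe sets, and 2 of them moved together. The brightest, an x_at set whose probes can also match related transcripts, read 19.5 and 26.3 in the control, 50.6 and 47.2 with 0 divisions, 69.6 and 188 with 1, 294 and 123 with 2, and 1507 and 1450 with 3 or more (intensity, replicates 1 and 2). Each induced array lay above both control arrays, and the cohorts of 1 and 2 divisions overlapped. In log2 units it averaged 10.52 ± 0.05 with 3 or more divisions and 4.48 ± 0.31 in the control (SD, n = 2 each), a change of 6.04 ± 0.49 (SE; limma adjusted p = 0.000289). The probe set 1460347_at, which is not of the x_at kind, read 540 and 460 with 3 or more divisions and 11.7 and 13.6 in the control, a change of 5.29 ± 0.53 (limma adjusted p = 0.000552). The remaining Krt14 probe set, 1455573_at, stayed between 10.8 and 16.3 on all arrays, with a change of -0.11 ± 0.15 (limma adjusted p = 0.686), so the probe sets of this gene disagree.

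Krt5, the type II partner of Krt14, did not pass the test in any comparison. Its probe set read 32.5 and 37.8 with 3 or more divisions and 37.8 and 37.0 in the control. The log2 change was -0.02 ± 0.14 (SE; limma adjusted p = 0.948), with a 95% interval from -0.35 to 0.31. No cohort differed from the control by more than 0.17 in size on this probe set. No array gave a high reading of this probe set, so its response to Krt5 RNA was not tested.

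The RefSeq promoter table holds 3 of the 8 genes, Krt14, Krt5 and Krt10, and their 250 bases before the annotated start are shown. By its brightest probe set Krt14 was called, while the probe set of its basal partner Krt5 was not, with the limits given above. Krt10 is a keratin of the Krt14 cluster that did not pass. Capitals mark matches, on either strand, to the AP-1 letters TGANTCA, the Klf letters CCACCC, the E-box CACGTG, the octamer ATGCAAAT or the TATA letters TATAAA, none of which overlap here.
Krt14, GRCm38.p6 chr11:100206031-100206280, minus strand: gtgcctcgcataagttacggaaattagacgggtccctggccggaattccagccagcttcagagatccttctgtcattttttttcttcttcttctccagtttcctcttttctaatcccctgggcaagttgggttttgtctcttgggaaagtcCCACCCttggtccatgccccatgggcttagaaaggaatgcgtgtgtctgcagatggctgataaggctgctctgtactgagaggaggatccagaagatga
Krt5, GRCm38.p6 chr15:101712906-101713155, minus strand: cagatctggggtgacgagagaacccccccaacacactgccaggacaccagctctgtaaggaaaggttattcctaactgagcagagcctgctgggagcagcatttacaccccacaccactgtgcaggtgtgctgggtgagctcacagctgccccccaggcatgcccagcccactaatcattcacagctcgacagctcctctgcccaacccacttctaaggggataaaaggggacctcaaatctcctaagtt
Krt10, GRCm38.p6 chr11:99389365-99389614, minus strand: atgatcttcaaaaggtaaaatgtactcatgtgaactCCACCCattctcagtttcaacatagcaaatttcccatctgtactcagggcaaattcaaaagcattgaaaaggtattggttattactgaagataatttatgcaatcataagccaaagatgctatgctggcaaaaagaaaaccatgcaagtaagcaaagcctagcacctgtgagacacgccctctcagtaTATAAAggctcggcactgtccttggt
Krt14 held a CCACCC match 99 to 94 bases before the start, and Krt10 held 1 at 214 to 209 bases and TATAAA at 26 to 21 bases. The Krt5 window held 0 matches. Among 32851 RefSeq windows of the same 250 bases, 28.1% held CCACCC, 12.4% TATAAA, 6.75% TGANTCA, 6.02% CACGTG and 1.6% ATGCAAAT, and the matches are given as description.

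Krt15, another type I keratin of basal and hair follicle cells, rose to a small extent with 3 or more divisions. It read 37.0 and 53.2 there and 32.03 and 20.2 in the control, and the arrays did not overlap. The log2 change was 0.88 ± 0.24 (SE; limma adjusted p = 0.0367). This call was lost in the compared arrays alone. The call was lost without control replicate 2 (adjusted p = 0.177) or replicate 2 of the 3+ cohort (adjusted p = 0.235), where the change was 0.56 and 0.60. It was also lost without either array of 1 division (adjusted p = 0.0502) or of 2 divisions (adjusted p = 0.0590), with the values as deposited (adjusted p = 0.0501), with a floor of 16 or 32 (adjusted p = 0.0967 and 0.129) and with the replicate block in the 4 arrays of that label style (adjusted p = 0.0865).

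Krt16, the type I stress keratin, rose 102-fold with 3 or more divisions, or 40.8-fold with a floor of 32. It read 12.1 and 13.7 in the control, 103 and 85.3 with 0 divisions, 125 and 260 with 1, 357 and 138 with 2, and 1454 and 1199 with 3 or more. All 8 induced arrays stood above the control arrays, and the array of lowest intensity among them was replicate 2 of 0 divisions. With 3 or more divisions the log2 mean was 10.35 ± 0.20, against 3.68 ± 0.12 in the control (SD, n = 2 each), a change of 6.67 ± 0.45 (SE; limma adjusted p = 0.000204). On the control arrays the probe set lay between the 17.7 and 23.4 percentiles of all probe sets, and with 3 or more divisions between the 93.2 and 94.3 percentiles.

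Krt6a, the type II stress keratin that pairs with Krt16 and Krt17, rose on all 3 of its probe sets, by unequal amounts. The a_at set, which reads several transcripts of the gene and is its brightest by mean log2 value, stood at 717 and 850 with 3 or more divisions and 55.6 and 44.9 in the control, a log2 change of 3.95 ± 0.29 (SE; limma adjusted p = 0.00023). The probe set 1422784_at read 1854 and 2226 against 21.0 and 20.4 in the control, 98.3-fold. The x_at set read 93.0 and 97.4 against 12.7 and 11.9 in the control, 7.96-fold. With 0 divisions the 3 sets read 46.3 and 51.3, 20.2 and 23.4, and 12.0 and 10.2, and each overlapped the control. Krt6b, a near copy of Krt6a next to it on the chromosome, rose by 3.87 ± 0.28, and how far the probe sets of each also bind the other is not known here.

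Krt17, the other type I stress keratin, rose on 1 of its 2 probe sets. The set 1423227_at read 51.1 and 108 with 3 or more divisions, against 10.7 and 12.1 in the control, and between 13.1 and 16.02 on the 6 arrays of 0, 1 and 2 divisions. The log2 change was 2.75 ± 0.29 (SE; limma adjusted p = 0.000637), or 6.71-fold. This call was lost when intensities below 32 were set to 32 (log2 change 1.24, adjusted p = 0.0658). The set 1420193_at read 11.8 and 13.2 with 3 or more divisions and 11.5 on both control arrays, and did not pass (limma adjusted p = 0.558).

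Of the suprabasal pair, Krt1 rose slightly and Krt10 did not pass. Krt1, the type II member, read 39.1 and 24.9 with 3 or more divisions and 15.7 and 19.1 in the control, a log2 change of 0.91 ± 0.22 (SE; limma adjusted p = 0.0217). The call was lost without replicate 1 of the 3+ cohort (change 0.60, adjusted p = 0.113), without control replicate 1 (0.77, adjusted p = 0.119), with a floor of 16 (adjusted p = 0.0633) and in the compared arrays alone (adjusted p = 0.0642). With a floor of 32 the change was 0.16 (adjusted p = 0.468). Krt10, the type I member, read 105 and 93.9 with 3 or more divisions and 119 and 63.1 in the control (limma adjusted p = 0.809). In Krt10, replicate 1 was above replicate 2 in each of the 5 groups.

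**Figure D2:**
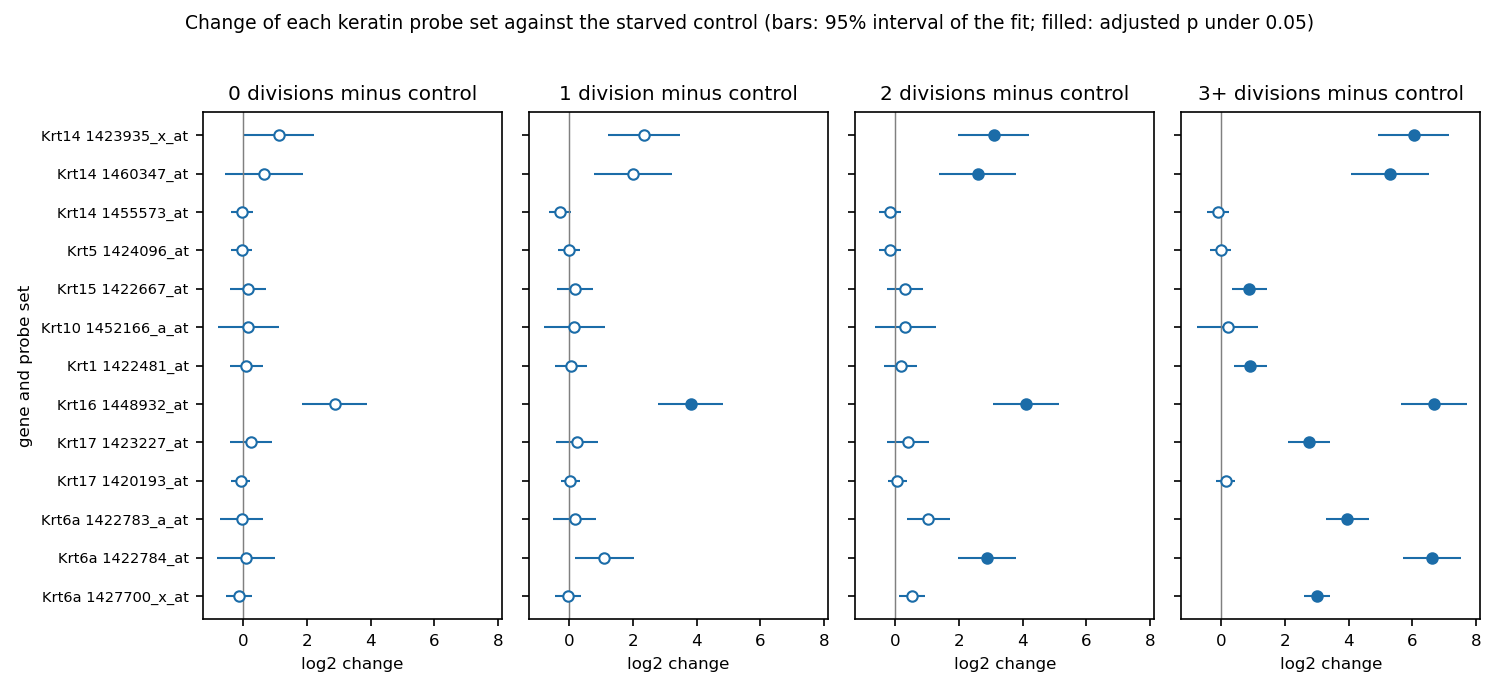
Log2 change against the starved control of each of the 13 keratin probe sets in the 4 induced cohorts; bars are the 95% interval of the limma fit and filled points have an adjusted p under 0.05. The filled points number 0, 1, 4 and 9 from 0 to 3 or more divisions.

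The cohorts of fewer divisions were also induced for 96 h, so they are not a time course. With 0 divisions 0 of the 13 probe sets passed limma's test, and 0.0799% of all probe sets were called higher. At an unadjusted p under 0.05 there was 1 of the 13 (7.69%), against 9.68% of all probe sets. That 1 was Krt16, with a log2 change of 2.87 ± 0.45 (SE), 7.29-fold (adjusted p = 0.0616). With the replicate number as a block it passed (adjusted p = 0.0168), in a fit that called 1.28% of all probe sets higher. The brightest Krt14 probe set had a change of 1.11 ± 0.49 with 0 divisions (adjusted p = 0.528), with its arrays above the control.

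With 1 division, Krt16 alone passed (3.81 ± 0.45, limma adjusted p = 0.0209), and 0.491% of all probe sets were called higher. A floor of 16 took the call away (adjusted p = 0.0965), as did fitting the compared arrays alone (adjusted p = 0.192). It was lost in 5 of the 10 fits without 1 array, those without either control array, either array of 3 or more divisions or replicate 2 of 1 division, with adjusted p from 0.0583 to 0.108. Krt14 had a change of 2.34 ± 0.49 (adjusted p = 0.0944, and 0.0306 with the replicate block, which called 2 of the 13 and 2.41% of all probe sets higher). Krt6a by 1422784_at had a change of 1.10 ± 0.40 (adjusted p = 0.307).

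With 2 divisions, 4 of the 13 probe sets rose, 1 of Krt16 (4.11 ± 0.45, limma adjusted p = 0.00524), 2 of Krt14 (3.08 ± 0.49 and 2.58 ± 0.53) and 1 of Krt6a (2.87 ± 0.40), and 2.48% of all probe sets were called higher. Without control replicate 2 only 1 of them was called, that of Krt16, and without control replicate 1 or replicate 1 of 2 divisions those of Krt16 and Krt6a. The 2 Krt14 probe sets lost the call without either control array (adjusted p from 0.0611 to 0.140) or without replicate 1 of 2 divisions (adjusted p = 0.110 and 0.220), the dimmer one in 8 of 10 such fits, and for Krt6a it was lost without control replicate 2 (adjusted p = 0.0558). With a floor of 32, or in the compared arrays alone, 0 of the 4 were called. The a_at set of Krt6a had a change of 1.03 ± 0.29 (adjusted p = 0.103) and passed without replicate 2 of 2 divisions (1.49, adjusted p = 0.0367). Krt17 read 16.02 and 13.4 with 2 divisions and did not pass (adjusted p = 0.556).

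No keratin probe set passed between neighbouring cohorts up to 2 divisions. For 1 division against 0, and for 2 against 1, limma called 0 of the 13 probe sets and 0% of all probe sets, with 3 of the 13 at an unadjusted p under 0.05 in each (23.1%, against 2.74% and 2.68% of all probe sets). Those of 2 against 1 were all of Krt6a, and those of 1 against 0 were of Krt14 and Krt6a. Several probe sets of a gene are counted in these shares. The 95% interval of the Krt16 change was -0.09 to 1.97 for 1 division against 0 and -0.73 to 1.33 for 2 against 1. For 2 divisions against 0, which are arrays of the same label style, 0 of 13 passed and 0.0466% of all probe sets were called higher, while 6 of 13 had an unadjusted p under 0.05 (46.2%, against 7.14% of all probe sets). These 6 were of Krt6a, Krt14 and Krt16 alone. Krt6a by 1422784_at read 245 and 92.2 with 2 divisions and 20.2 and 23.4 with 0, a change of 2.79 ± 0.40 (adjusted p = 0.103). With the replicate block it passed (adjusted p = 0.0177, and 0.0482 in the 6 arrays of that style alone), where 0.522% of all probe sets were called higher. It also passed without replicate 2 of 2 divisions (3.49, adjusted p = 0.0191). Over the same step Krt16 had a change of 1.24 ± 0.45 and Krt14 one of 1.98 ± 0.49, neither past the test (adjusted p = 0.603 and 0.36).

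For Krt16, Krt14 and Krt6a the 2 replicates of the cohorts of 1 and 2 divisions spread widely and in opposite ways. Replicate 2 minus replicate 1 was 1.06 for Krt16, 1.43 for Krt14 and 0.62 for Krt6a by 1422784_at with 1 division, and -1.37, -1.25 and -1.40 with 2 divisions (log2). Over the probe sets with a mean above the median, the same differences of these 2 cohorts had a correlation of 0.534, a description across probe sets that are not independent. The order of 1 and 2 divisions therefore rests on arrays that overlap for Krt16 and Krt14 and not for Krt6a.

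With 3 or more divisions against 2, 7 of the 13 probe sets rose, all 3 of Krt6a, 2 of Krt14 and 1 each of Krt16 and Krt17, and 1.63% of all probe sets were called higher. Krt6a by 1422784_at changed by 3.75 ± 0.40 (SE; limma adjusted p = 0.0162), Krt14 by 2.95 ± 0.49 (adjusted p = 0.0321), Krt16 by 2.57 ± 0.45 (adjusted p = 0.0344) and Krt17 by 2.35 ± 0.29 (adjusted p = 0.0218). Without replicate 2 of the 3+ cohort 0 of the 13 were called, in a fit that called 2 of all probe sets, although the change of Krt6a by this set was still 3.63. The count was 2 without replicate 2 of 2 divisions, and 4 without replicate 1 of the 3+ cohort or without either array of 0 divisions, 5 without either control array and 6 without replicate 1 of 2 divisions. With a floor of 16 it was 3, and with a floor of 32 it was 1. Krt1 and Krt15 did not pass at this step (adjusted p = 0.115 and 0.25), and Krt5 had a change of 0.15 ± 0.14.

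The other keratins are given beside these changes. By the brightest probe set, 48 keratin genes of the chromosome 11 and 15 clusters were measured, the 8 members among them. With 3 or more divisions against the control 13 rose and 0 fell, and 6 of the 13 are members. Of the other 40 keratin genes 7 rose, while 15.1% of all genes were called higher and 10.9% lower on that basis. The 7 were Krt8 (5.08 ± 0.26, SE), Krt19 (5.35 ± 0.30), Krt13 (4.01 ± 0.39), Krt6b, Krt79 (1.60 ± 0.27), Krt80 (1.504 ± 0.17) and Krt84 (1.07 ± 0.21, named after its value was seen). In gene order on chromosome 11, the keratin genes Krt13, Krt15, Krt19, Krt14, Krt16 and Krt17 follow each other with Krt9, not analysed here, among them, and these 6 rose. The call of Krt15 was lost in 11 of 19 alternative fits, and that of Krt17 with a floor of 32. The 18 other measured keratin genes of that chromosome, Krt10 among them, did not pass. On chromosome 15, Krt6b and Krt6a are neighbours and both rose, and Krt5, the next keratin gene, did not pass. This order was looked at after the values were seen, and the runs have no test.

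**Figure D3:**
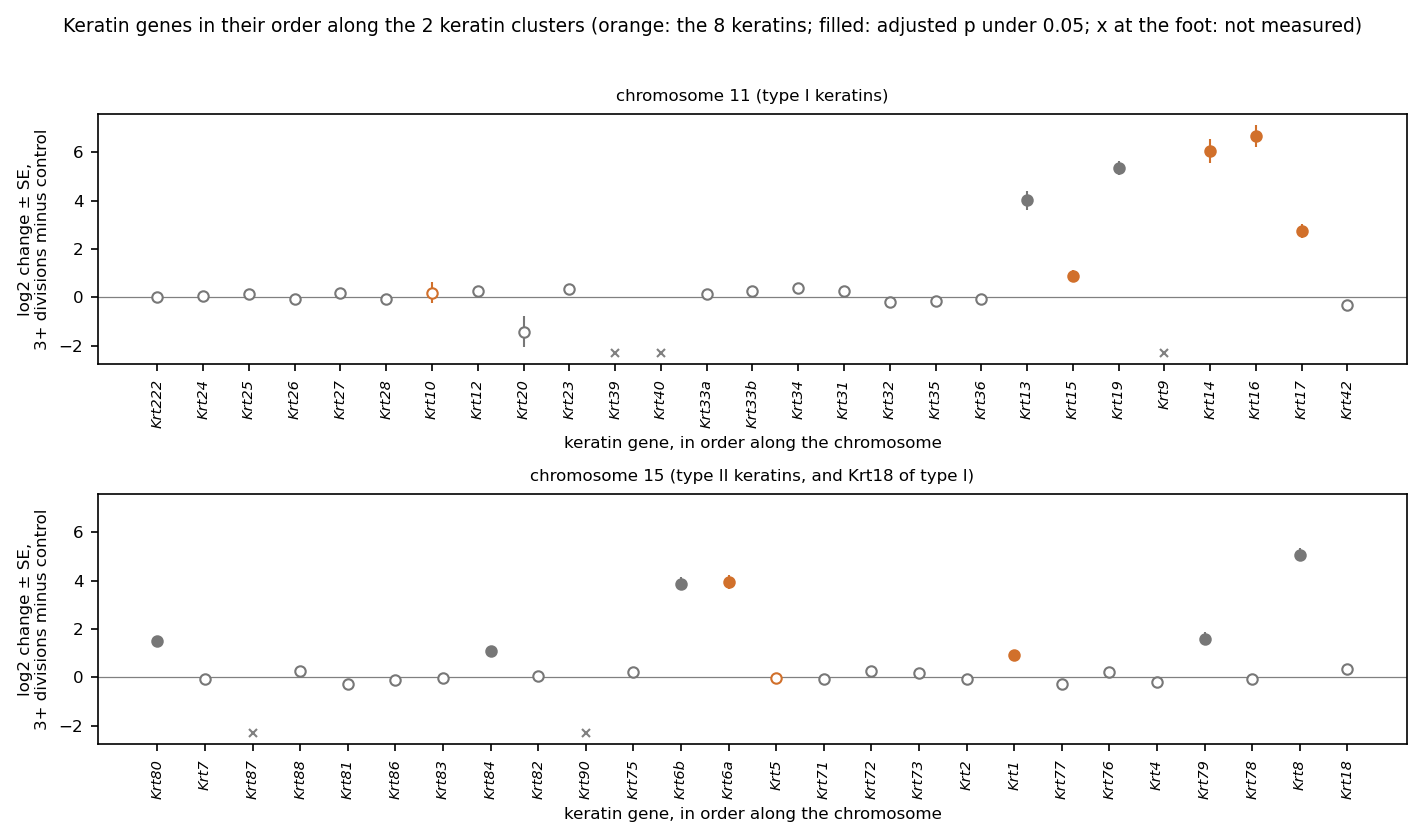
Log2 change ± SE of 3 or more divisions minus control for each keratin gene by its brightest probe set, with genes placed in their order along chromosomes 11 and 15; orange marks the 8 keratins, filled points have an adjusted p under 0.05, and an x marks a gene not measured. The filled points of chromosome 11 are 6 neighbours near its right end, and Krt42 at the end did not pass. Among them Krt15 lost its call in 11 of 19 alternative fits.

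By the lists, 2 of 5 simple epithelial keratins rose, 3 of 11 other type II keratins (Krt6b, Krt80 and Krt79) and 1 of 9 other type I keratins (Krt13), with 0 falls and medians of 0.33, 0.19 and 0.24. The shares over all genes in this comparison were 15.1% called higher and 10.9% lower. Krt18, a type I partner of Krt8, read 15.1 and 13.6 with 3 or more divisions and 11.9 and 11.3 in the control. It did not pass (limma adjusted p = 0.149), so of the pairs Krt5 with Krt14 and Krt8 with Krt18 a single partner passed in each. Krt19, another type I keratin of the simple epithelial list, rose with Krt8 (5.35 ± 0.30). The Krt18 probe set gave no high reading in these groups, so, as for Krt5, its response to that RNA was not tested. Among 17 genes that anchor or link keratin filaments 8 rose and 0 fell, with a median of 0.64. The largest rises were of the desmosome genes Dsp (5.66 ± 0.58) and Pkp1 (4.23 ± 0.31) and the hemidesmosome integrin gene Itgb4 (4.02 ± 0.35). The desmosome genes Pkp2, Pkp3, Jup, Dsc3 and Dsg2 and the hemidesmosome gene Col17a1 of this list did not pass. Of 8 intermediate filament genes of other cells 4 rose and 0 fell, with a median of 0.38, and these were the lamin genes Lmnb1 (1.92 ± 0.27) and Lmna (1.04 ± 0.15), the neurofilament gene Nefl (1.49 ± 0.30) and the glial gene Gfap (0.62 ± 0.17, named after its value was seen). Nefl was not called when intensities below 16 were set to 16 (change 0.60, adjusted p = 0.242) or when array 2 of the 3+ cohort was left out (change 1.17, adjusted p = 0.0849).

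Among 20 transcription regulators of epidermal keratin genes 5 rose and 3 fell, with a median of 0.23. Over all genes 15.1% were called higher and 10.9% lower. Grhl3 (3.14 ± 0.32) and Grhl1 (1.96 ± 0.23), epidermal grainyhead factors, and the AP-1 gene Fosl1 (2.62 ± 0.18) rose by the most. The 3 that fell, named after their values were seen, were Klf4 (407 and 360 in the 3+ cohort, against 1294 and 1576 in the control, log2 change -1.93 ± 0.19), Junb (-0.71) and Stat3 (-0.54). Klf4 is also 1 of the induced factors, and whether its probe set reads the induced copy is not known here. Trp63, a transcription factor of basal keratinocytes, read 25.7 and 27.5 with 3 or more divisions and 51.4 and 33.8 in the control and did not pass (limma adjusted p = 0.282). The cultures could hold other cells, so markers of several types are given beside the keratins. Of 14 keratinocyte markers outside the 8 keratins 7 rose and 0 fell, with a summed intensity of 650 to 862 in the control, 1028 to 1115 with 0 divisions, 1322 to 1765 with 1, 1793 to 2785 with 2 and 4205 to 4559 with 3 or more. Such sums over different probe sets, here and for fibroblasts, are weighted to the bright ones and do not give the level of a cell type. Of the 14, Itgb4, Dsc3, Col17a1 and Trp63 also stand in the lists above. The 7 that rose were Itgb4 (4.02), Lgals7 (3.15), Perp (2.77), Tgm1 (1.94), Sfn (0.96), Ivl (0.65) and Sprr1a (0.63), and those that did not pass were Trp63, Dsc3, Col17a1, Dsg1a, Flg, Lor and Sprr1b. The part of keratinocytes in the keratin result was not tested. Of 11 fibroblast markers 7 fell and 0 rose (summed intensity 67775 to 79285 with 3 or more divisions and 109020 to 120270 in the control), and Vim was among those that did not pass. Of 6 melanocyte markers limma called 0, with 0 at an unadjusted p under 0.05. Of 6 macrophage markers Cd68 rose (3.54) and Lyz2 fell (-1.39), and of 5 endothelial markers Tek rose (2.44) and Kdr fell (-0.55), named after their values were seen.

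Likeness of pattern was measured as Pearson's r of log2 values over the 10 arrays, which share groups and replicates, so r describes these arrays and has no p. Outside the 8 keratins, Krt16 was most like Abcb1b (0.987), Tuba4a (0.984) and Acad9 (0.983), and Krt14 most like Krtdap (0.988), Abl2 (0.987) and Ap1g2 (0.987). Krt6a was most like Cyp4f39 (0.990), Agr3 (0.988) and Avil (0.984), and Krt17 most like Prr18 (0.986), Ube2s (0.983) and Nup210 (0.983). Krt15 came nearest to Mtarc2 (0.964), Vps33b (0.963) and Rpusd4 (0.959), and Krt1 to Fam25c (0.975), Mfn1 (0.952) and Ly6d (0.951). Among the members themselves, Krt14 and Krt16 had r of 0.957, Krt6a and Krt17 0.957, and Krt6a and Krt16, which can pair in filaments, 0.814. Krt5 had r of -0.29 to 0.19 with the 6 called members.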

How the data were processed

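The members and gene lists were chosen with earlier results of these data known. A table of intensity on a linear scale was deposited, with 45101 probe sets. RMA is named for the arrays of the control and of 3 or more divisions, per the submitters' processing notes; for the other 6 arrays the tool was not given in the sources used here. Normalization by array group could shift the comparisons that cross label styles. Intensities were floored at 1 (0 values moved), taken to log2 from the deposited values and quantile normalized over the 10 arrays. The 64 control probe sets were then dropped, and limma 3.58.1 in R 4.3.3 (lmFit and eBayes, 5 residual degrees of freedom) was fitted to 5 groups, in 8 comparisons, two-sided. Each member probe set was tested on its own, and other genes by their brightest probe set of 18193 genes. By rule, all members, up to 3 called genes of each list and the 3 genes of most like pattern were named. Some genes outside this rule are marked in the text as named after their values were seen. Others, among them Krt18, Trp63, Vim and the keratinocyte markers other than Itgb4, are outside it and not so marked. Cell type markers are given as counts, and some also by name.

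Replicate differences (2 minus 1), over probe sets with a mean above the median, had r from 0.435 to 0.830 between groups, in each of 10 pairs. Replicate numbers may thus pair the samples, on the data alone, as no label names a shared culture. The reported fit did not include this pairing, and the replicate block was run as an alternative. Promoters are from RefSeq, GRCm38.p6. Probe sets have no coordinates here. The fit was tested on simulated data. Alternatives were other normalizations, floors of 16 and 32, a filter on dim probe sets, 1 probe set a gene, the compared arrays alone, the replicate block, eBayes with trend and robust, leaving out each array, and, chosen after seeing the data, the block within arrays of a label style.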

Additional observations from a re-analysis of the deposited data

How the results depend on the processing

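No member probe set changed sign among those called in the reported fit or in any alternative, which were 25 of 104 combinations of probe set and comparison. Of the alternative values for these, 379 kept their side of the threshold, 85 lost a call and 6 gained one. In 15 genes of the other lists, those the naming rule gave, 291 of 295 alternatives kept the call; alternatives were not run for the genes named after their values were seen or for the cell type markers other than Itgb4. With 3 or more divisions against the control 9 probe sets were called, 5 of 7 after the filter on dim probe sets, which tests fewer of them, 7 with a floor of 16, 6 with a floor of 32, 7 in the compared arrays alone, and 8 to 9 when 1 array was left out. With 2 divisions against the control the 4 calls became 1 with a floor of 16, 0 with a floor of 32, 2 of 8 with 1 probe set a gene, 0 in the compared arrays alone (136 of all probe sets), and 1 to 4 without 1 array. With 1 division against the control the 1 call became 0 with either floor and in the compared arrays alone, 2 with the replicate block, and 0 to 1 without 1 array. With 3 or more divisions against 2 the 7 calls became 3 with a floor of 16, 1 with a floor of 32, 4 of 8 with 1 probe set a gene, and 0 to 7 without 1 array. With the replicate block 1 probe set was called with 0 divisions against the control (819 of all probe sets, against 55 without the block), and 1 for 2 divisions against 0 (389 against 22), also within the 6 arrays of a label style (345). The block was not run with an array left out, so how far its calls rest on single arrays is not known. The block changed no other call of the 13 probe sets. Beyond the tests with fewer probe sets, the cause of these changes was not tested. The 2 arrays a group and dim control readings limit precision.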
